A study of Mus musculus with 60 samples.

Results

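The 4 genes described here make or sense oxysterols, the oxidized derivatives of cholesterol. They are Ch25h, Cyp27a1, Cyp7b1 and Gpr183, and they were picked by name from the 770 genes of a nanoString nCounter neuroinflammation panel for mouse, an assay in which barcoded probes are bound to transcripts and counted. Ch25h was picked for its difference between tumor-bearing and vehicle injected mice in these data, so values of that comparison are given as a description, without tests. Times of day and brain regions were tested with limma, as the choice of genes did not use those comparisons. The same Ch25h values did enter its choice, so tests of Ch25h are not independent of it.

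Brain stem, hippocampus and hypothalamus were sampled from each of 20 female Balb/C mice, aged 13 weeks at collection and kept under 14 h of light and 10 h of dark. Tumor-bearing mice had received 67NR cells in a pair of inguinal mammary glands, and vehicle injected mice the medium DMEM alone. 67NR cells are cultured mouse mammary cancer cells that do not form metastases, so the tumor groups model 1 line of this kind. Brains were taken after PBS perfusion on day 25. Collection was at ZT19 (mid-dark) for some mice and ZT7 (mid-light) for the others. Each of the 4 groups held 5 mice in the labels. Of 60 samples listed, 56 had values, which left 3 vehicle injected mice in hypothalamus at mid-dark, 4 in hypothalamus at mid-light and 4 in brain stem at mid-dark.

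Ch25h encodes the endoplasmic reticulum enzyme that makes 25-hydroxycholesterol, and it is known as a gene that interferons and Toll-like receptor ligands induce in macrophages. Cyp27a1 encodes a mitochondrial hydroxylase of the sterol side chain, and Cyp7b1 an enzyme that hydroxylates oxysterols and neurosteroids further and is known for its abundance in hippocampus. The doubly hydroxylated product of Ch25h and Cyp7b1 is the ligand of Gpr183 (EBI2), a receptor that guides B cells, T cells and dendritic cells.

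The promoter of Ch25h is shown because Ch25h is the gene whose level differed between tumor-bearing and vehicle injected mice. The 250 bases before its start (RefSeq, GRCm38.p6, chr19:34475149-34475398, minus strand) are printed 5′ to 3′ with a TATA box and a cyclic AMP response element in capitals.

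Ch25h: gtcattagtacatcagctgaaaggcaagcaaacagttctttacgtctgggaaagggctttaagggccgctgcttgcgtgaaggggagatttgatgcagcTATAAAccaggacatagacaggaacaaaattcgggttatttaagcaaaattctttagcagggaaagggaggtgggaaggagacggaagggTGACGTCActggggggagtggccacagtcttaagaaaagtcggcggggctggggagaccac

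The letters searched, on both strands, were those of a cyclic AMP response element (TGACGTCA), a gamma-interferon activation site (TTCNNNGAA), the core of an interferon-stimulated response element (GAAA, NN and GAAA in a row), a kappa B site (GGGA, NN and TTCC in a row), an AP-1 site (TGANTCA), an E-box (CACGTG) and a TATA box (TATAAA). In Ch25h the response element began 61 bases before the start and the TATA box 151 bases before it. Of 32851 mouse promoter windows of the same length, 1.55% held the response element and 12.4% the TATA box. None of the 7 motifs was found in the windows of Cyp27a1 or Gpr183, and Cyp7b1 was not matched. These are matches of letters and say nothing of binding.

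The mean log2 value of Ch25h was 4.29 in brain stem, 4.26 in hippocampus and 4.04 in hypothalamus, and none of its values stood at the lowest value of the table. These are low values, as the sample medians over all genes were 8.07 to 8.09. On the linear scale, group means of Ch25h ran from 12.0 to 33.1, so its differences rest on low normalized values. Values of different genes come from different probes, so apart from this position against the sample medians no gene's level was set against another's. In bulk tissue, fewer cells that express a gene and less RNA per cell cannot be told apart.

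In hippocampus at mid-light, log2 values of Ch25h were 4.51, 4.73, 4.97, 5.22 and 5.41 in tumor-bearing mice and 3.43, 3.74, 3.80, 4.23 and 4.37 in vehicle injected mice. All 5 tumor-bearing mice were above all 5 vehicle injected mice, as was so for 1.04% of the 770 genes. The tumor minus vehicle difference was 1.06 on the log2 scale (SE 0.24), a 2.08-fold higher value. At mid-dark the tumor-bearing mice had 3.84, 4.15, 4.72, 4.95 and 5.16 and the vehicle injected mice 3.28, 3.51, 3.62, 3.73 and 3.91. Here 4 of 5 tumor-bearing mice were above every vehicle injected mouse, and the groups overlapped. The difference was 0.95 (SE 0.24), or 1.93-fold.

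In brain stem at mid-light, the tumor-bearing mice had 4.75, 4.77, 4.84, 5.21 and 5.67 and the vehicle injected mice 2.87, 3.09, 3.57, 4.14 and 4.25. These groups did not overlap either, which held in the same direction for 0.909% of the genes. The difference was 1.46 (SE 0.30), or 2.76-fold. At mid-dark the values were 3.95, 4.31, 4.45, 4.72 and 4.98 against 3.23, 3.76, 4.46 and 4.47, with 2 of 5 tumor-bearing mice above every vehicle injected mouse. That difference was 0.50 (SE 0.32), or 1.41-fold, and it was 0.25 without mouse 12, a vehicle injected mouse.

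In hypothalamus the groups overlapped at both times of day. At mid-dark the tumor-bearing mice had 3.73, 3.74, 3.78, 4.39 and 4.47 and the vehicle injected mice 3.55, 3.57 and 3.91. At mid-light the values were 4.08, 4.14, 4.31, 4.47 and 5.08 against 2.79, 3.86, 4.37 and 4.45. At each time of day 2 of 5 tumor-bearing mice exceeded every vehicle injected mouse. The mid-dark difference was 0.34 (SE 0.33). The mid-light difference was 0.55 (SE 0.30), and it was 0.19 without mouse 6, the vehicle injected mouse at 2.79.

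**Figure D1:**
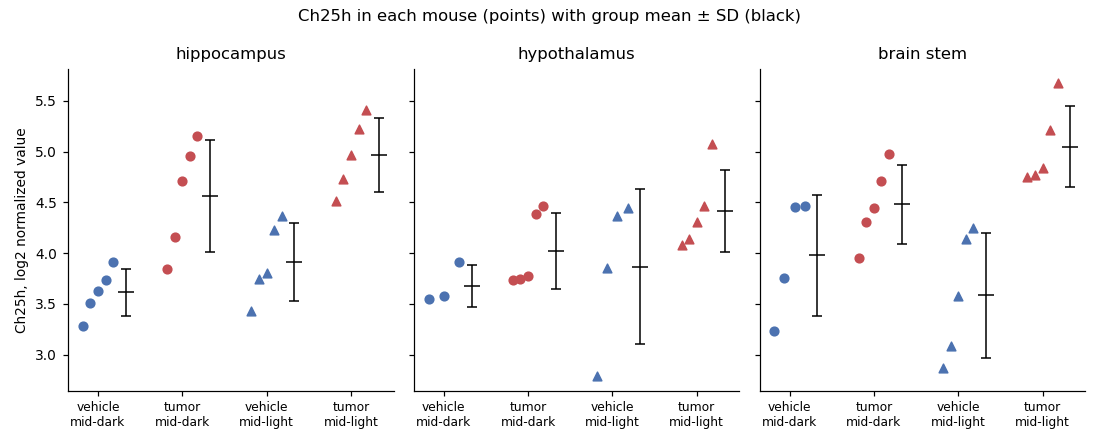
Ch25h in hippocampus, hypothalamus and brain stem. The y axis is the log2 normalized value, each point is a mouse (blue vehicle injected, red tumor-bearing; circles mid-dark, triangles mid-light) and black marks are the group mean ± SD. At mid-light the red and blue points separate in hippocampus and brain stem and overlap in hypothalamus.

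Between times of day, the tumor minus vehicle difference of Ch25h at mid-dark minus that at mid-light was -0.96 in brain stem (SE 0.44), -0.10 in hippocampus (SE 0.34) and -0.21 in hypothalamus (SE 0.45). These too rest on the comparison for which Ch25h was picked and are given without a test. With each mouse left out in turn, they ranged from -1.21 to -0.79 in brain stem, -0.25 to 0.08 in hippocampus and -0.40 to 0.15 in hypothalamus, and the sign turned without mouse 2, 3 or 9 in hippocampus and without mouse 6 in hypothalamus.

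RNA purity was lower in brain stem of tumor-bearing mice at mid-dark. The labelled 260/280 absorbance ratio ran from 1.34 to 1.99 there, with a median of 1.68, and from 1.95 to 2.01 in the vehicle injected mice of that time, against 1.79 to 2.04 in hippocampus and hypothalamus. With the 4 brain stem samples under 1.7 left out, 3 of tumor-bearing mice at mid-dark and 1 at mid-light, the mid-dark difference of Ch25h was 0.35 (SE 0.44) and the mid-light difference 1.53 (SE 0.34).

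The other genes of the group had smaller differences between tumor-bearing and vehicle injected mice. Cyp7b1 differences lay between -0.05 and 0.04 over the 6 comparisons, with SE from 0.08 to 0.11. Gpr183 differences lay between -0.18 and 0.0048, with SE from 0.10 to 0.14, the lowest in brain stem at mid-light. Cyp27a1 differences lay between -0.32 and 0.23, with SE from 0.15 to 0.22. The highest, in hypothalamus at mid-light, was 0.10 without mouse 1, a tumor-bearing mouse. The lowest, in brain stem at mid-dark, came from values of 6.51, 6.95, 7.21, 7.63 and 7.73 in tumor-bearing mice against 7.16, 7.57, 7.61 and 7.75 in vehicle injected mice, and it was -0.09 with the 260/280 ratio as a covariate and -0.10 without the 4 samples under 1.7.

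**Figure D2:**
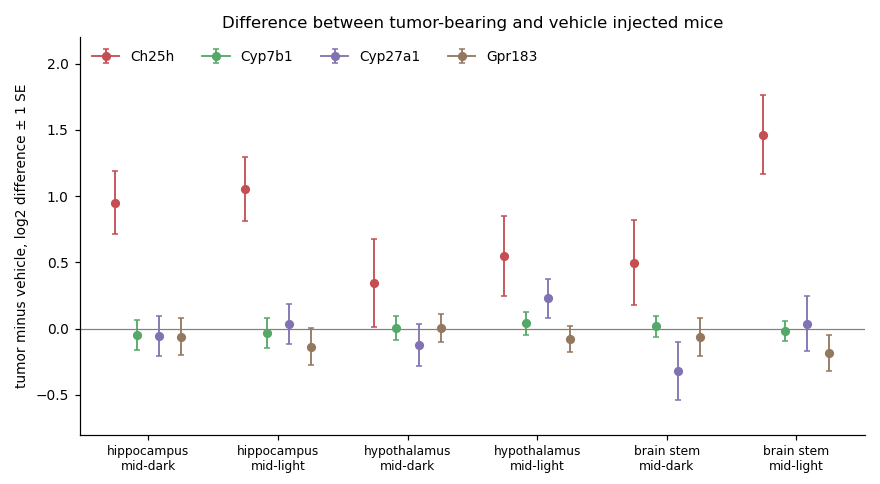
Tumor minus vehicle differences of the 4 genes by region and time of day. The y axis is the log2 difference and bars are ± 1 SE. Ch25h lies between 0.34 and 1.46 in all 6 comparisons, and the other genes lie between -0.32 and 0.23.

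**Figure D3:**
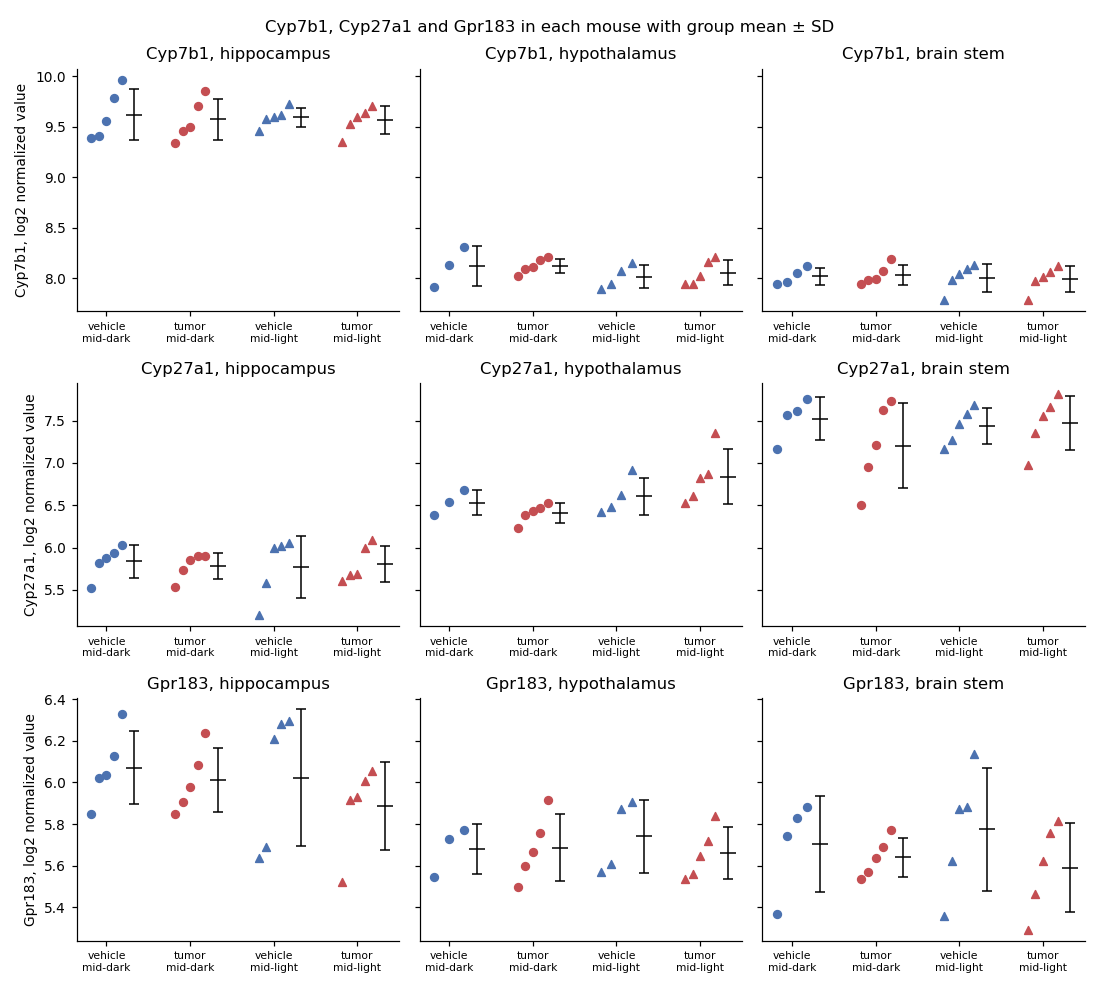
Cyp7b1, Cyp27a1 and Gpr183 (rows) in the 3 regions (columns). The y axis is the log2 normalized value, each point is a mouse (blue vehicle injected, red tumor-bearing; circles mid-dark, triangles mid-light) and black marks are the group mean ± SD. Red and blue points overlap in every panel, while Cyp7b1 is higher in hippocampus and Cyp27a1 higher in brain stem.

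Time of day was compared within vehicle injected mice and within tumor-bearing mice. In none of the 24 comparisons of the 4 genes was the limma adjusted p under 0.05, and 1 had an unadjusted p under 0.05, which was so for 10.1%, 16.5% and 6.88% of all genes in brain stem, hippocampus and hypothalamus of vehicle injected mice and for 10%, 12.4% and 9.74% in tumor-bearing mice. Over all genes, adjusted p values passed in vehicle injected mice for 1.3% in brain stem, 2.47% in hippocampus and 0.26% in hypothalamus, and in tumor-bearing mice for 0.78%, 1.04% and 1.04% in that order. Ch25h was lower at mid-dark than at mid-light in tumor-bearing mice of each region, by -0.57 in brain stem (95% interval -1.20 to 0.06), -0.41 in hippocampus (-0.91 to 0.10) and -0.39 in hypothalamus (-1.001 to 0.21), with limma adjusted p values of 0.530, 0.542 and 0.775. In vehicle injected mice the differences were 0.40, -0.30 and -0.19 in the same order, with limma adjusted p values of 0.745, 0.594 and 0.983. The values of these mice entered the choice of Ch25h, so its tests of time of day are not independent of that choice.

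The comparison with the unadjusted p under 0.05 was Cyp27a1 in hypothalamus of tumor-bearing mice. The mid-dark mice had 6.23, 6.38, 6.44, 6.47 and 6.52, and the mid-light mice had 6.52, 6.61, 6.82, 6.87 and 7.36, so the groups overlapped only at their edges. The difference was -0.43 (SE 0.14), with a limma p of 0.00668 and a limma adjusted p of 0.212, which was 0.121 to 0.433 over the alternatives. Without mouse 1, the mid-light mouse at 7.36, the difference was -0.30. That sample also had the lowest value of the second labelled RNA absorbance ratio, which was not used as a filter or covariate. In vehicle injected mice the difference was -0.08 (SE 0.17). Of 7 oligodendrocyte markers, 1 was called lower at mid-dark in the same tumor-bearing mice, Opalin, and their median difference was -0.21, against 0.0057 over all genes. Opalin was also called lower at mid-dark in vehicle injected mice of this region and in both groups of hippocampus and of brain stem. In hippocampus of tumor-bearing mice 3 markers were called lower, with a median of -0.64, while Cyp27a1 differed by -0.03. The part of oligodendrocyte RNA in the Cyp27a1 value was not tested.

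Differences between regions were the largest found for Cyp7b1 and Cyp27a1. In a limma model over all samples with the mouse as a block, 7 of the 9 comparisons of Cyp7b1, Cyp27a1 and Gpr183 between regions had an adjusted p under 0.05, but so did 71.7% of all 770 genes between hippocampus and hypothalamus, 76.6% between hippocampus and brain stem and 66.5% between hypothalamus and brain stem. A called region difference was thus common on the panel, and the sizes and directions carry the description.

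Cyp7b1 was highest in hippocampus. Its mean log2 value was 9.59 ± 0.17 there (SD, n = 20), 8.08 ± 0.12 in hypothalamus (n = 17) and 8.01 ± 0.11 in brain stem (n = 19). Hippocampus exceeded hypothalamus in 17 of 17 mice, by a mean of 1.51 in the model (SE 0.05, adjusted p = 4.52e-32), and brain stem in 19 of 19 mice, by 1.58 (SE 0.04, adjusted p = 5.75e-34). These are 2.84-fold and 2.98-fold. The lowest hippocampal value, 9.34, lay above the highest value of either other region, 8.31 and 8.19. Samples of hippocampus and hypothalamus were as fully apart for 19.7% of the genes, and samples of hippocampus and brain stem for 26.2%. Markers of hippocampal and forebrain neurons moved the same way, with 4 of 4 called higher in hippocampus than in hypothalamus (median difference 3.30) and 3 of 4 higher than in brain stem (3.58), and their part in the Cyp7b1 values was not tested. Between hypothalamus and brain stem Cyp7b1 differed by 0.07 (95% interval -0.02 to 0.16, limma adjusted p = 0.185).

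Cyp27a1 ran the other way. Its mean was 7.40 ± 0.34 in brain stem, 6.602 ± 0.27 in hypothalamus and 5.80 ± 0.23 in hippocampus (SD, n = 19, 17 and 20). In the same mouse, hippocampus was below hypothalamus in 17 of 17 mice and below brain stem in 19 of 19, and hypothalamus was below brain stem in 16 of 16. The model differences were -0.80 (hippocampus minus hypothalamus, adjusted p = 1.31e-11), -1.61 (hippocampus minus brain stem, adjusted p = 3.70e-23) and -0.81 (hypothalamus minus brain stem, adjusted p = 2.27e-11), or 1.74-fold, 3.05-fold and 1.75-fold lower. The hippocampal samples did not overlap with either other region, while those of hypothalamus and brain stem did. Such full separation held for 19.7% of all genes between hippocampus and hypothalamus and for 26.2% between hippocampus and brain stem. Oligodendrocyte markers moved with Cyp27a1. All 7 of those used (Cnp, Gjb1, Mag, Mobp, Mog, Myrf and Opalin) were called lower in hippocampus than in brain stem, and also lower in hypothalamus than in brain stem, with median differences of -1.502 and -1.27, and between hippocampus and hypothalamus 5 were lower and 1 higher. Their summed linear level ran from 44689 to 55974 in brain stem, 19107 to 27757 in hypothalamus and 10325 to 28608 in hippocampus. Of 8 endothelial markers, 4 were called lower in hippocampus than in hypothalamus and 7 lower than in brain stem. In hypothalamus 3 of them were called lower than in brain stem. All 6 astrocyte markers were called lower in hippocampus than in hypothalamus, and against brain stem 4 were lower and 1 higher. The part of oligodendrocytes, endothelial cells or astrocytes in the Cyp27a1 values was not tested.

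Gpr183 was modestly higher in hippocampus. Its mean was 6.00 ± 0.22 there, 5.69 ± 0.14 in hypothalamus and 5.68 ± 0.21 in brain stem (SD, n = 20, 17 and 19). Hippocampus was higher than hypothalamus in 15 of 17 mice, by 0.31 in the model (SE 0.06, limma adjusted p = 2.20e-05), and higher than brain stem in 18 of 19 mice, by 0.32 (SE 0.06, limma adjusted p = 5.05e-06). Hypothalamus and brain stem differed by 0.01 (95% interval -0.12 to 0.14). Microglia markers had the same direction, with 7 of 8 called higher in hippocampus than in hypothalamus (median difference 0.33) and 7 of 8 higher than in brain stem (0.50), where the eighth, Sall1, was called lower (-0.43). Their summed linear level ran from 3481 to 4812 in brain stem, 4221 to 4819 in hypothalamus and 5002 to 6151 in hippocampus. The part of microglia in the Gpr183 values was not tested.

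For Ch25h the region comparison is cleanest in vehicle injected mice, which carry no tumor. There hippocampus minus hypothalamus was 0.01 (95% interval -0.47 to 0.49, limma adjusted p = 0.966), hippocampus minus brain stem -0.02 (-0.46 to 0.43, adjusted p = 0.938) and hypothalamus minus brain stem -0.03 (-0.53 to 0.46, adjusted p = 0.926). In tumor-bearing mice hypothalamus was the lowest region, with 0.55 for hippocampus minus hypothalamus, -0.55 for hypothalamus minus brain stem and 0.0029 for hippocampus minus brain stem (SE 0.16 each). Those values carry the tumor differences for which Ch25h was picked and were not tested. In vehicle injected mice no region stood apart beyond the spread between mice.

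**Figure D4:**
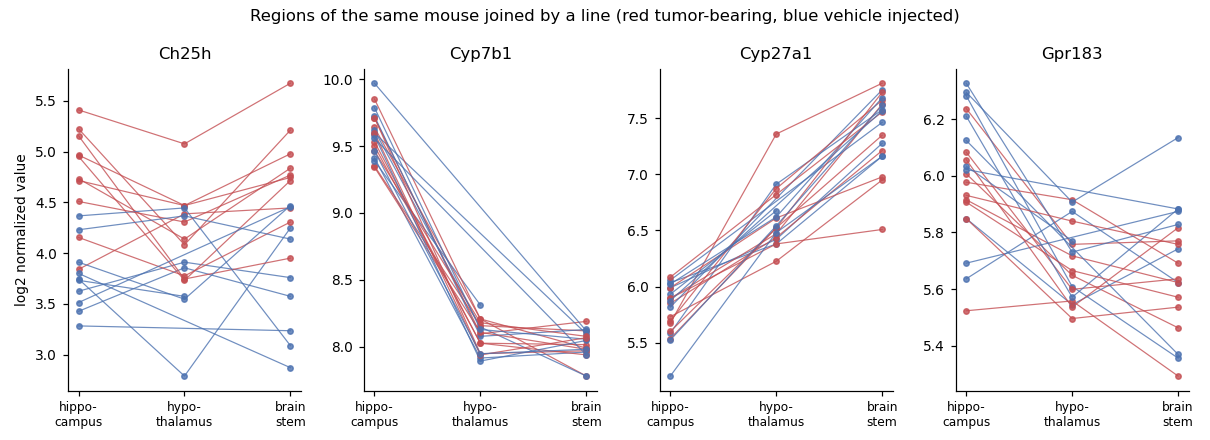
Hippocampus, hypothalamus and brain stem of each mouse for Ch25h, Cyp7b1, Cyp27a1 and Gpr183. The y axis is the log2 normalized value, each line joins the regions of a mouse (red tumor-bearing, blue vehicle injected), and missing points are samples without values. Cyp7b1 falls and Cyp27a1 rises from hippocampus to brain stem in every mouse with both values.

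Other genes of sterol handling on the panel were few. Of 24 listed, 6 were present (Fdxr, Hsd11b1, Apoe, Slc10a6, Fabp5 and Trem2), and none was called by limma between tumor-bearing and vehicle injected mice, with 0 to 2 at an unadjusted p under 0.05 in each of the 6 comparisons, where their median difference lay between -0.12 and 0.03. The adjusted threshold was passed there by 0.13% of all genes in hippocampus at each time of day and by none in hypothalamus, while the shares in brain stem were 0.26% (mid-dark) and 0.65% (mid-light). Unadjusted shares at mid-dark were 6.63% for hippocampus, 4.81% for hypothalamus and 7.41% for brain stem, and those at mid-light 7.02%, 5.19% and 4.81%. Apoe, which carries cholesterol between brain cells, was lower at mid-dark in hippocampus of vehicle injected mice by -0.31 (SE 0.06, limma adjusted p = 0.00925) and differed by -0.03 in hypothalamus and -0.02 in brain stem. Fdxr, the reductase that supplies electrons to mitochondrial P450 enzymes such as Cyp27a1, differed between regions by -0.02 to -0.0057 and was called in none. Hsd11b1, a steroid dehydrogenase that also acts on oxysterols, was higher in hippocampus than in hypothalamus by 0.92 (SE 0.06, limma adjusted p = 8.59e-19), and higher in hippocampus than in brain stem by 0.14 (SE 0.06, limma adjusted p = 0.0285). Hypothalamus was below brain stem by -0.79 (limma adjusted p = 9.67e-16), so hypothalamus was the low region of Hsd11b1. Over the 6 genes, 2 were called higher and 3 lower in hippocampus than in hypothalamus, and 3 higher and 1 lower than in brain stem.

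Genes of interferon, Toll-like receptor and cytokine signaling, taken as upstream of Ch25h, were also counted, without a split into inducers and inhibitors. Of 16 upstream signal genes on the panel (of 18 listed), 1 was called between tumor-bearing and vehicle injected mice, Il1r1, the receptor of interleukin-1, which rose in brain stem at mid-light by 0.66 (SE 0.11, limma adjusted p = 0.00794). At mid-dark in brain stem its difference was 0.55 (SE 0.12, adjusted p = 0.0570). With Il1r1 counted, 5 of the 16 had an unadjusted limma p under 0.05 in mid-dark brain stem, in either direction. In mid-light brain stem 3 of the 16 did. The shares over all genes were 7.41% and 4.81% in that order. Each comparison in hippocampus and hypothalamus had 1 to 2 of the 16. Of 16 interferon induced genes on the panel (of 20 listed), none was called in any of the 6 tumor comparisons by limma, and 0 to 2 had an unadjusted p under 0.05. For mid-dark and mid-light, their median difference was 0.05 and -0.06 in brain stem, 0.09 and -0.13 in hippocampus, and 0.04 and 0.02 in hypothalamus, against -0.0068 to 0.0096 over all genes. Time of day was called for Ifnar2, a subunit of the type I interferon receptor, which was lower at mid-dark in hippocampus of vehicle injected mice by -0.30 (limma adjusted p = 0.0196), and for Irf3, an interferon regulatory factor, which was higher there by 0.26 (adjusted p = 0.0156) and higher in hypothalamus of tumor-bearing mice by 0.41 (adjusted p = 0.00302). Markers of microglia, macrophages, neutrophils, T cells, B cells and endothelial cells were not called between tumor-bearing and vehicle injected mice in any region at the adjusted threshold by limma. At an unadjusted p under 0.05 there were 0 to 3 of 8 microglia markers in each comparison, 0 to 2 of 5 for macrophages, 0 to 1 of 2 for neutrophils, 0 to 1 of 7 for T cells, 0 to 1 of 6 for B cells and 1 to 4 of 8 for endothelial cells. The shares over all genes were 4.81% to 7.41% in these comparisons. Endothelial cells had 4 of 8 in hypothalamus at mid-light and in brain stem at both times of day, with differences in both directions. Microglia had 3 of 8 in hippocampus at mid-light, where all 8 markers were lower in tumor-bearing mice. The lists were written with earlier results known, so these counts are descriptions. The summed level of the choroid plexus markers Ttr and Trp73 differed widely between samples of a group in brain stem and hippocampus. It ran from 117 to 13973 in brain stem of vehicle injected mice at mid-light and from 196 to 26978 in hippocampus of vehicle injected mice at mid-dark, against 47.0 to 101 over all samples of hypothalamus. Its part in the Ch25h values was not tested.

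The genes most like each member were found by Pearson's r over the 56 samples after the mean of each of the 12 groups was subtracted. The samples share mice and the authors' normalization, so these are descriptions without a p. For Ch25h they were Ncr1 (0.52), Entpd2 (0.48) and Tgm2 (0.46), and with the region means alone subtracted, which leaves the tumor difference in, Tgm2 (0.69), Lcn2 (0.67) and Osmr (0.59). For Cyp7b1 they included St8sia6 (0.66) and Tmem144 (0.65). For Cyp27a1 they were Tet1 (0.58), Enpp6 (0.55) and Slc44a1 (0.51), and for Gpr183 the signaling genes of hematopoietic cells Syk (0.51) and Vav1 (0.48) and the myeloid factor Irf8 (0.42). Within groups, Ch25h had an r of -0.36 with Cyp27a1 and of -0.29 with Cyp7b1.

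Spleen mass and total tumor mass were set against the 4 genes in tumor-bearing mice. Mid-dark and mid-light mice were pooled and permuted together, so differences between times of day were not taken out. Of 24 correlations, none passed after Benjamini-Hochberg adjustment (smallest adjusted p = 0.520, permutation tests). The lowest unadjusted p values were for Gpr183 with total tumor mass. There r was -0.67 in hypothalamus (permutation p = 0.0366, Spearman's rho -0.54, permutation p = 0.113, n = 10 mice) and -0.43 without the 2 mice farthest from the median. In brain stem r was -0.63 (permutation p = 0.0497, Spearman's rho -0.64, permutation p = 0.0535, n = 10 mice) and -0.59 without those 2. For Ch25h, r with total tumor mass was 0.27 (hippocampus), -0.28 (hypothalamus) and -0.12 (brain stem), with permutation p from 0.441 to 0.742.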

How the data were processed

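RNA of 3 brain regions was measured on a nanoString nCounter neuroinflammation panel for mouse. The authors subtracted negative background and normalized to positive controls and CodeSet content in nSolver, quantile normalized in Partek, and deposited 770 genes as log2 values, having left out outliers by raw data. Raw counts were not used here, so depth is unknown and precision rests on how many mice there were. Samples were grouped by their labels, with mice as replicates. The mice are separate animals, and the 3 regions of a mouse share it.

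For each region, limma 3.58.1 in R 4.3.3 was fitted to all genes with the 4 tumor and phase groups as terms, and regions were compared in a model over all samples with the mouse as a random block (correlation 0.136). Adjusted p values are Benjamini-Hochberg over all genes of a comparison, and a gene with 1 value throughout a region was not tested there. Correlations of mice between regions used 100000 permutations within groups, and their alternatives used fewer. Correlations with masses used 100000 permutations over all tumor-bearing mice, without regard to time of day. Permutation tests were two-sided, in Python 3.11.15 with numpy 2.4.6 and scipy 1.17.1. Plots used matplotlib 3.10.9.

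The genes, lists and tests were chosen with earlier results of these data known. The text names the 4 genes, listed pathway genes that passed adjustment, Fdxr, Hsd11b1 and Apoe, and the 3 genes most like each member. A similar gene and a cell type marker are not reported here, and the marker was left out of its list. Markers named otherwise were chosen after their values were seen. Alternatives were a filter on low values, 2 further normalizations, the 260/280 ratio as a covariate, only the groups compared, ordinary variances, other uses of the mouse block, vehicle mice only and leaving out each mouse. Leaving out samples of low RNA purity and fitting tumor mice only were added after the data were seen. In simulated data, a change of 1 passed adjustment for 95% of the changed genes in brain stem and hippocampus and 91% in hypothalamus. A change of 0.5 passed for 88%, 82% and 75% in that order (tumor minus vehicle at mid-dark, 770 genes). Far more genes were changed there than were called by tumor in the data, which loosens the adjusted threshold. The shares therefore do not give the power of the tumor comparisons, and an uncalled gene may still differ.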

Additional observations from a re-analysis of the deposited data

Results flagged for a closer look

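Of 44 sets of values examined (a gene in a group of 4 or 5 mice), 1 held a value far from the rest, and chance gives about 1 in 20. In hippocampus at mid-light, Gpr183 was 5.52 in tumor-bearing mouse 9, against 5.92 to 6.06 in the 4 other mice of that group. The same mouse had the highest Ch25h value of its group in all 3 regions, 5.67 in brain stem, 5.41 in hippocampus and 5.08 in hypothalamus.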

How the results depend on the processing

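The tumor minus vehicle difference of Ch25h kept its sign in all 6 comparisons under every alternative that held the gene. Ch25h was picked for this difference and the regions share mice, so the constant sign describes the processing and is no test of the difference. The filter on low values (mean log2 of at least 5) removed Ch25h. The mid-light difference of Ch25h in hypothalamus ranged from 0.192 to 0.744 when single mice were left out. The number of comparisons of Cyp7b1, Cyp27a1 and Gpr183 called between regions was 7 in every setting, with no replicate block and with the replicate block as a fixed term too. The number of comparisons of the 4 genes called between times of day was 0 in every setting, the single fit of all regions with a replicate block included. With the filter on low values, that count covered only the genes other than Ch25h.

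Signs turned in differences that were not called. With the 260/280 ratio as a covariate, dark minus light was -0.014 for Cyp7b1 in hippocampus and 0.083 for Ch25h in hypothalamus of vehicle injected mice, and -0.029 for Gpr183 in brain stem of tumor-bearing mice. Hippocampus minus brain stem of Ch25h was 0.037 with that covariate, 0.021 without samples of low purity and 0.0029 in tumor mice only, and hypothalamus minus brain stem of Gpr183 was -0.035 in vehicle mice only. With each mouse left out in turn, signs turned in 11 of 24 tumor minus vehicle differences (none of Ch25h), in 7 of 12 differences of these between times of day, in 13 of 24 comparisons of times of day and in 2 of 12 of regions. In hippocampus dark minus light ranged from -0.077 to 0.143 for Cyp27a1, -0.060 to 0.085 for Cyp7b1 and -0.049 to 0.116 for Gpr183 in vehicle injected mice, and from -0.078 to 0.043 for Cyp27a1 and -0.062 to 0.066 for Cyp7b1 in tumor-bearing mice. In hypothalamus it ranged from -0.546 to 0.0066 for Ch25h, -0.148 to 0.025 for Cyp27a1 and -0.115 to 0.010 for Gpr183 in vehicle injected mice, and from -0.030 to 0.074 for Gpr183 in tumor-bearing mice. In brain stem it ranged from -0.045 to 0.042 for Cyp7b1 and -0.173 to 0.043 for Gpr183 in vehicle injected mice, and from -0.0073 to 0.077 for Cyp7b1 and -0.024 to 0.107 for Gpr183 in tumor-bearing mice. Hippocampus minus brain stem of Ch25h ranged from -0.078 to 0.044, and hypothalamus minus brain stem of Gpr183 from -0.016 to 0.032.
The cause of these changes was not tested.

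Counts over all genes moved by more than 1.5 times in some settings. With only the 2 groups compared, genes called by tumor were 2 in hippocampus at mid-dark (1 as reported) and 1 in brain stem at mid-light (5 as reported), and genes called by time of day were 10 in hippocampus (19) and 0 in hypothalamus (2) of vehicle injected mice and 3 in brain stem (6), 0 in hippocampus (8) and 5 in hypothalamus (8) of tumor-bearing mice. A single fit with a replicate block gave 3, 2 and 2 by tumor in hippocampus at mid-dark and hypothalamus at both times, and 40, 18 and 13 by time of day in hippocampus of vehicle injected mice and in hippocampus and hypothalamus of tumor-bearing mice. The 260/280 covariate gave 2 by tumor in hippocampus at mid-dark, 1 in brain stem at mid-dark and 3 by time of day in brain stem of tumor-bearing mice. The ordinary test gave 2 by tumor in brain stem at mid-light, and leaving out samples of low purity gave 0 at mid-dark and 3 at mid-light there, and 3 by time of day in brain stem of tumor-bearing mice.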

Other observations

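For Cyp27a1, mice above their group mean in hypothalamus also tended to be above it in brain stem, with 15 of 16 mice on the same side in both. Pearson's r of the deviations was 0.616 (permutation p = 0.00333, adjusted p = 0.0400 over 12 correlations) and Spearman's rho 0.797 (permutation p = 0.00031, adjusted p = 0.00372), and r was 0.654 without the 2 mice farthest from the median. Within subsets, r was 0.711 at mid-dark (n = 7), 0.761 at mid-light (n = 9), 0.592 in tumor-bearing mice (n = 10) and 0.712 in vehicle injected mice (n = 6). The adjusted p of r was above 0.05 in 14 of 24 alternatives, among them the 260/280 ratio regressed out (r = 0.627, adjusted p = 0.170) and the samples of low RNA purity left out (r = 0.732, adjusted p = 0.238), while r stayed between 0.561 and 0.736 with each mouse left out. For Cyp27a1 between hippocampus and the other regions r was -0.141 (hypothalamus) and -0.146 (brain stem). For Ch25h r was 0.189 between hippocampus and hypothalamus, 0.229 between hippocampus and brain stem and -0.030 between hypothalamus and brain stem, with permutation p from 0.356 to 0.936.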
